A study of Mus musculus with 16 samples.

Results

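The transcripts of 10 genes for tetraspanins and uroplakins were examined in mouse blastocysts treated with inhibitors of MAP kinase pathways. The genes were Tspan1, Tspan8, Cd9, Cd81, Cd82, Cd151, Upk1b, Upk1a, Upk2 and Upk3a. A probe set, the group of array probes that reads a transcript, was included if the platform annotation gave it a single gene of these 10, and 24 of 45037 probe sets met this. The genes were selected on the array signals of U0126 against control, in which Tspan1 and Upk1b were lower, so each member's value of U0126 against control below is a description without a test. The groups were blastocysts treated with 20 µM SB203580 (SB), 25 µM SP600125 (SP) or 20 µM U0126 (U), and control blastocysts with no treatment named (WT), with 3 samples each. SB203580 is used to inhibit p38 MAP kinases, SP600125 to inhibit JNK, and U0126 to inhibit MEK, the kinase upstream of ERK. The labels name neither a mouse strain nor a solvent for the controls, nor the duration of treatment, and whether replicates came from separate cultures is not said. The p-values therefore speak to the scatter among these 12 samples, which may be technical. Replicate 1 of each group was hybridised to a 430A and a 430B Affymetrix array, and replicates 2 and 3 to 430 2.0 arrays. Signals are compared only within an array type.

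Tetraspanins are small membrane proteins that cross the plasma membrane several times and gather integrins, proteases and immunoglobulin-family partners into membrane domains. Uroplakins are best known as the proteins of the stiff apical plaques of bladder epithelium. Upk1a and Upk1b are themselves tetraspanins and pair with the single-pass proteins Upk2 and Upk3a. In early mouse development Cd9 and Cd81 are known from the egg surface, where Cd9 is needed for fusion with sperm. The blastocyst has an outer polarised epithelium, the trophectoderm, which encloses a fluid cavity and the inner cell mass.

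RefSeq promoter windows, from 250 bases before to 50 bases after the start site (GRCm38.p6), were on hand for 8 of the 10 genes. The windows of Tspan1 and of its relative Tspan8 are printed here. Among the members Tspan1 had the largest difference of U0126 against control, the comparison used to pick it, and the Tspan8 differences there were smaller. The Tspan1 window is chr4:116167549-116167848 on the minus strand and the Tspan8 window chr10:115817034-115817333 on the plus strand. Capitals mark matches on either strand to 6 motifs, which were AP-1 (TGANTCA), Ets (CCGGAA), TEAD (GGAATG), Sp/Klf (GGGCGG), Grainyhead (AACCNGTT) and AP-2 (GCCNNNGGC).
Tspan1: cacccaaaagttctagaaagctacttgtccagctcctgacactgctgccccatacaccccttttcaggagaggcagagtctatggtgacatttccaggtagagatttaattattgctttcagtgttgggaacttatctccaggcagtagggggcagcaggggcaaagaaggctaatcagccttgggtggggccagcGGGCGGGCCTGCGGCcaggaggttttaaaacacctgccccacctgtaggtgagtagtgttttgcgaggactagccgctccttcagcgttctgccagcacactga
Tspan8: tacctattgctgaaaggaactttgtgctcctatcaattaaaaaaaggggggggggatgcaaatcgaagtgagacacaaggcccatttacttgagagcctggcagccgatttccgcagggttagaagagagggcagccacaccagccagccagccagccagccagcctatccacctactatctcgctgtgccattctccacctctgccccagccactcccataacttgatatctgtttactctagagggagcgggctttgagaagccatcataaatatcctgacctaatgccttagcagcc
The Tspan1 window held 1 Sp/Klf match, whose first base lies at position -54 from the start site, and next to it 1 AP-2 match with its first base at -48, which do not overlap. The Tspan8 window held no match to the 6 motifs. Of 32851 promoter windows of the same length, 35.7% held the Sp/Klf letters, 16.6% the AP-2 letters, 14.9% the Ets letters, 14.7% the TEAD letters, 7.81% the AP-1 letters and 2.09% the Grainyhead letters. Sp/Klf letters also lay in windows of Cd9, Cd81, Cd82, Cd151 and Upk3a, and AP-2 letters in windows of Cd9, Cd82 and Cd151. Among the other members Cd9 had 1 Ets match, Cd151 had 1 Grainyhead match in the first of its windows, and Cd82 had TEAD letters in 2 of its windows. No member window held the AP-1 letters.

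The arrays were checked for blastocyst markers and for other cells. The 7 trophectoderm, 4 inner cell mass and 5 primitive endoderm markers each had a probe set above the signal filter. Of 9 markers of uterine and oviduct epithelium, cells that could come along with flushed embryos, 5 passed it. Wfdc2, a secreted epithelial protein, had the highest signals of the 5, from 973.5 to 2190.1 over the 12 samples, and the oviduct glycoprotein gene Ovgp1 had 65.8 to 213.5. Msx1, Foxa2 and Pgr also passed. The other 4 did not, namely Ltf (3.6 to 77.9), Muc1 (4.6 to 37.0), Lcn2 (1.8 to 15.2) and Esr1 (23.3 to 99.7). None of the 4 blood and 5 cumulus and granulosa markers with a probe set was listed at 0, and 1 of each passed. On the 430 2.0 arrays the median signal was 77.7 and 83 in U0126 samples, against 61.1 and 65.7 in controls. It was 66.2 and 68.9 in SB203580 samples and 61.5 and 66.5 in SP600125 samples.

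Tspan1, an epithelial tetraspanin of apical and secretory membranes, was lowest in U0126-treated blastocysts, intermediate with SP600125 and close to control with SB203580. Its signals on the brighter of its 2 probe sets (1417957_a_at) were 146.3, 380.2 and 447.2 in U0126 replicates 1, 2 and 3, against 979.2, 1430.5 and 1250.2 in controls. The 3 U0126 samples therefore lay below every control of their array type, as the choice of the gene implies. The log2 change was -1.99 ± 0.21 (SE, n = 3 per group), which is 0.251 of the control level. The dimmer probe set (1417958_at) gave 46.3, 9.2 and 11.7 with U0126, against 133.8, 223.3 and 131.8 in controls, with a log2 change of -2.44 ± 0.62. On the 430 2.0 arrays these U0126 signals lay below the constant of 12.6 that was added before taking the log2, so that size depends on the constant. Replicate 1 showed the largest difference on the brighter probe set, -2.64, with -1.78 and -1.55 in replicates 2 and 3. On the 430A arrays of replicate 1 the 3' to 5' actin ratio, a sign of RNA quality, was 1.62 with U0126 and 2.47 in the control, whereas on the 430 2.0 arrays all 8 ratios lay between 1.58 and 1.75. The matching Gapdh ratios were 2.61 with U0126 and 4.03 in the control of replicate 1. On the 430 2.0 arrays they were 3.69 and 3.79 with U0126, against 4.8 and 3.05 in controls. The part of RNA quality in the Tspan1 value was not tested. In such bulk samples fewer cells of a type and less RNA per cell cannot be told apart.

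With SP600125 the brighter Tspan1 probe set had signals of 525.5, 875.2 and 1004.6, against 979.2, 1430.5 and 1250.2 in controls, and each was below the controls of its array type. This held for 11.5% of all probe sets tested, and the controls are those against which Tspan1 was picked. The log2 change was -0.63 ± 0.21 (95% interval -1.09 to -0.18) and did not pass in limma (adjusted p = 0.325). The dimmer set stood at -1.60 ± 0.62, with 63.2, 100 and 8.3 against 133.8, 223.3 and 131.8 in controls, and also did not pass (adjusted p = 0.439 in limma). With SB203580 the brighter set had 834.4, 1525.7 and 1028.0, and its replicates 2 and 3 lay on either side of the controls. The change of -0.14 ± 0.21 did not pass, with a 95% interval from -0.59 to 0.32. SB203580 and SP600125, compared with each other, differed by 0.49 ± 0.21 on this probe set (adjusted p = 0.411 in limma). Every SB203580 sample was above the SP600125 samples of its array type, as for 13.5% of all probe sets tested.

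Upk1b, the uroplakin tetraspanin that pairs with Upk3a, was lower than control in blastocysts treated with SB203580, a comparison that its selection did not use. Of its 4 probe sets 2 fell, where 0.389% of all probe sets tested passed in either direction and 0.3% were lower. Probe set 1435831_at had signals of 360.3, 123.0 and 89.4 in SB203580 replicates 1, 2 and 3, against 1068.6, 323.1 and 519.7 in controls. Its log2 change was -1.74 ± 0.26 (adjusted p = 0.00565 in limma), or 0.299 of control. Probe set 1455464_x_at had 667.0, 139.6 and 114.6 with SB203580, against 1190.6, 378.4 and 400.0 in controls, a change of -1.29 ± 0.25 (adjusted p = 0.0271 in limma). On both sets every SB203580 sample was below every control of its array type, as for 11.9% of all probe sets tested. The other sets had the same sign without passing. They were 1457065_at, at -1.73 ± 0.45 (adjusted p = 0.128), and 1439760_x_at, the one with the highest signal, at -0.83 ± 0.25 (adjusted p = 0.231, both in limma). The control samples are shared with the comparison in which Upk1b was picked.

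When the 4 sets were averaged into a gene value, an alternative chosen after these values were seen, Upk1b was at -1.40 ± 0.24 with SB203580 (adjusted p = 0.0114 in limma over 12614 genes). The call of 1435831_at held without each of the 12 samples in turn. It was lost with the 430 2.0 arrays alone (-1.85, adjusted p = 0.0714) and without the intensity trend of limma (-1.74, adjusted p = 0.0799). The call of 1455464_x_at was lost without any single SB203580 or control sample. Its change then lay between -1.47 and -1.17, with adjusted p = 0.0558 without SB203580 replicate 1, 0.0967 and 0.143 without SB203580 replicates 2 and 3, and 0.0633, 0.144 and 0.122 without control replicates 1, 2 and 3.

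With SP600125, Upk1b was below control in every sample of its array type on all 4 probe sets, as for 11.5% of all probe sets tested. No Upk1b set passed, and the controls are again those against which the gene was picked. Signals of 1435831_at were 653.7, 226.5 and 158.2, against 1068.6, 323.1 and 519.7 in controls, with a change of -0.94 ± 0.26 (adjusted p = 0.172 in limma). Probe set 1455464_x_at stood at -0.96 ± 0.25 (adjusted p = 0.124), from signals of 773.2, 184.1 and 158.2. Probe sets 1457065_at and 1439760_x_at stood at -1.24 ± 0.45 and -0.42 ± 0.25. In the direct comparison, SB203580 minus SP600125 ranged from -0.80 ± 0.26 on 1435831_at (95% interval -1.36 to -0.24) to -0.33 ± 0.25 on 1455464_x_at (95% interval -0.86 to 0.19), and none of the 4 sets passed.

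With U0126, the Upk1b probe sets disagreed. Signals of 1455464_x_at were 432.4, 124.4 and 85.5, against 1190.6, 378.4 and 400.0 in controls, a change of -1.67 ± 0.25. Probe set 1435831_at had 431.6, 186.7 and 162.9, against the control values given above, a change of -1.21 ± 0.26, and 1457065_at had 418.3, 74.7 and 57.3 against 913.4, 215.5 and 248.3 (-1.46 ± 0.45). All U0126 samples were below the controls of their array type on these 3 sets, as for 9.14% of all probe sets tested. Nothing is read from this, since the gene was picked here. On 1439760_x_at, however, the signals were 1380.9, 326.2 and 454.1 with U0126, against 2137.7, 322.6 and 409.9 in controls, and the groups overlapped on the 430 2.0 arrays (-0.16 ± 0.25). Over the 12 samples, centred within array type, this probe set correlated with the others at r = 0.354 to 0.683, while the other 3 correlated with each other at r = 0.774 to 0.845. These values describe the probe sets and share the same samples. Whether 1439760_x_at reads another transcript was not tested.

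**Figure D1:**
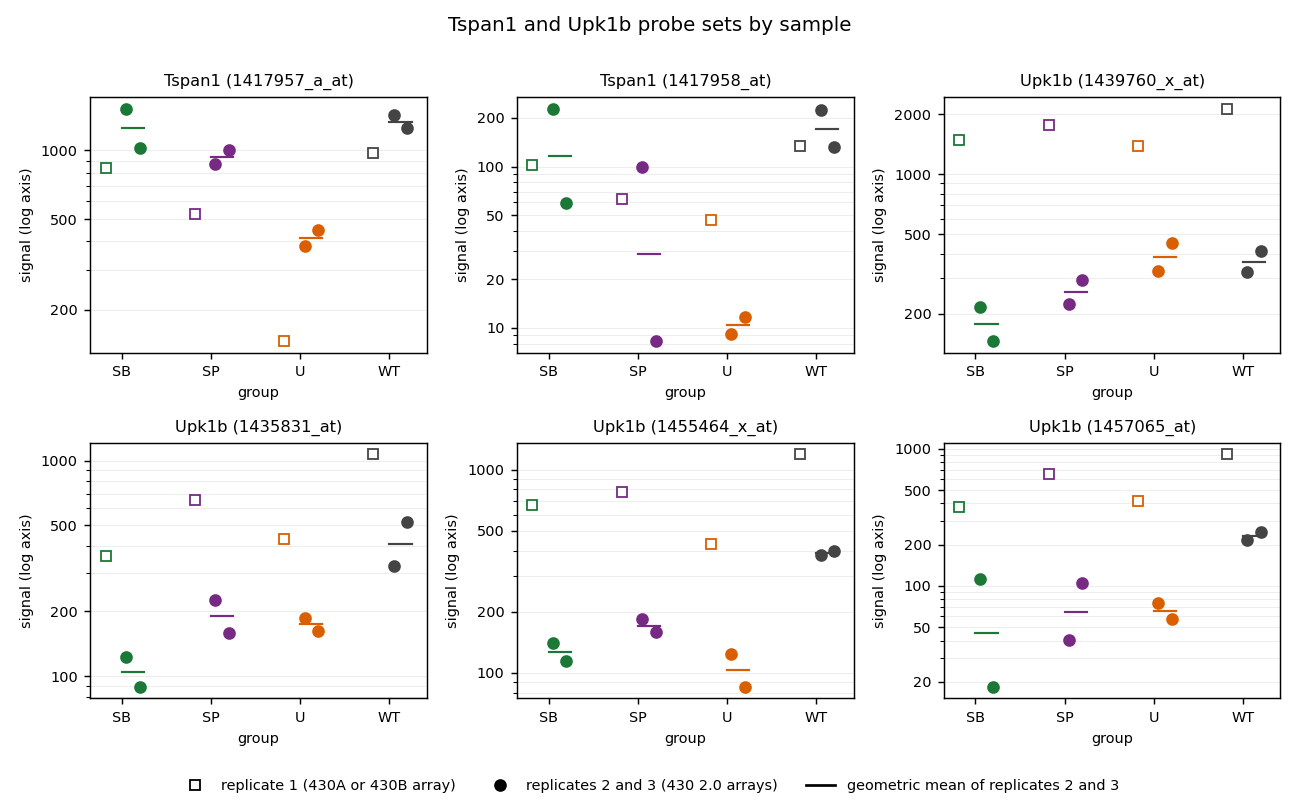
Signals of the 2 Tspan1 and 4 Upk1b probe sets (log axis) in SB203580 (SB), SP600125 (SP), U0126 (U) and control (WT) samples; open squares are replicate 1 on 430A or 430B arrays, filled circles replicates 2 and 3 on 430 2.0 arrays, and lines their geometric mean. Tspan1 is lowest with U0126, and 3 of the 4 Upk1b sets are below control with each inhibitor in every sample of an array type. Of all probe sets tested, 11.9% lay so with SB203580, 11.5% with SP600125 and 9.14% with U0126.

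Beside the Upk1b values, the summed signal of 7 trophectoderm markers was 36514.6, 93203.7 and 96232.5 with SB203580 and 42312.5, 102779 and 109588.2 in controls. The median change of the 7 was -0.20, with none past the test, against 0.01 over all probe sets tested. With SB203580 they ran from -1 ± 0.23 for Elf5, a trophoblast transcription factor (adjusted p = 0.0753 in limma), to -0.06 ± 0.09 for Krt8. Gata3 stood at -0.63 ± 0.17 (adjusted p = 0.157 in limma). With SP600125 the median was 0.04, and Elf5 fell (-1.14 ± 0.23, adjusted p = 0.0294 in limma). That call was lost without SP600125 replicate 1 or 3 or control replicate 1 or 2 (adjusted p = 0.185, 0.124, 0.198 and 0.152), with median scaling (0.0786), on the 430 2.0 arrays alone (-0.73, adjusted p = 0.308) and without the intensity trend (0.321). Of 5 primitive endoderm markers, Sox17 (-1.39 ± 0.21), Pdgfra (-1.14 ± 0.15) and Sparc (-1.26 ± 0.16) fell with SP600125, and none passed with SB203580. The 5 had a median of -0.50 with SB203580, and ran from -0.66 ± 0.16 for Sparc to 0.27 ± 0.15 for Pdgfra. With SP600125 Gata4 stood at -1.12 ± 0.33 and Gata6 in the other direction at 0.21 ± 0.12, neither past the test. Without the intensity trend of limma the calls of Sox17, Pdgfra and Sparc were lost (adjusted p = 0.126, 0.0887 and 0.0912). Pdgfra, a growth factor receptor, was higher with SB203580 than with SP600125 (1.41 ± 0.15, adjusted p = 0.000143 in limma). With U0126, given without a test, the 4 inner cell mass markers had a median change of 0.69. Fgf4 was at 1.33 ± 0.20, Sox2 at 0.87 ± 0.14, Pou5f1 at 0.50 ± 0.16 and Nanog at -0.34 ± 0.20. The 5 primitive endoderm markers had a median of -0.60 with U0126. They ran from -0.87 ± 0.21 for Sox17 to -0.37 ± 0.15 for Pdgfra, with Gata6 at -0.60 ± 0.12. The summed signal of the 9 uterine and oviduct markers was 2275.4, 2140.8 and 1917.3 with SB203580 and 2031.7, 1833.3 and 1818.4 with SP600125. It was 2205.8, 2378.5 and 2880.8 with U0126 and 2718.5, 2623.3 and 2517.6 in controls. Of these 9, Foxa2, a factor of endoderm as well, fell with SP600125 (-1.33 ± 0.28, adjusted p = 0.0366 in limma), and that call was lost without any single SP600125 or control sample (adjusted p from 0.104 to 0.176). It was also lost without the filter (0.0511), with median scaling (0.0584), on the 430 2.0 arrays alone (0.207) and without the trend (0.11). The part of these differences in cell types in the Tspan1 and Upk1b values was not tested.

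Of the tetraspanins without the uroplakin name, Tspan8, Cd9, Cd81, Cd82 and Cd151, none passed in SB203580 or SP600125 against control or between them. Cd81, a partner of integrins and of immunoglobulin-family proteins, had the largest difference among their main probe sets. Its signals were 377.7, 719.1 and 946.5 with SP600125, against 316.5, 395.1 and 306.7 in controls, and all 3 lay above the controls of their array type. This held for 11% of all probe sets tested. The change was 0.89 ± 0.25 (95% interval 0.36 to 1.42, adjusted p = 0.18 in limma), and it passed without control replicate 1 (1.25, adjusted p = 0.0309). With SB203580 the signals were 192.3, 490.6 and 471.5, below control in replicate 1 and above it in replicates 2 and 3 (0.07 ± 0.25). SB203580 minus SP600125 was -0.82 ± 0.25 (adjusted p = 0.183 in limma), with differences of -0.93, -0.74 and -0.79 in the 3 replicates. With U0126 they were 271.2, 583.8 and 724.5 (0.51 ± 0.25 against control).

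Tspan8, a tetraspanin of digestive and other epithelia known from cell motility and exosomes, did not pass against control on any of its 5 probe sets. The probe set with the highest signal (1424649_a_at) had 6440.5, 19031.9 and 14830.6 with SB203580, 7570.7, 22101 and 21231.5 with SP600125, 6911.5, 19442.2 and 19934.7 with U0126, and 6443.6, 18816.9 and 18403.6 in controls. The change was 0.22 ± 0.10 with SP600125 (95% interval 0.02 to 0.43) and -0.10 ± 0.10 with SB203580 (95% interval -0.30 to 0.11), neither past the test. SB203580 minus SP600125 was -0.32 ± 0.10 (adjusted p = 0.176 in limma). In that comparison every SB203580 sample was below the SP600125 samples of its array type on 4 of the 5 Tspan8 probe sets. This held for 12.7% of all probe sets tested, and the 5 sets are annotated to 1 gene and are not independent. The changes on the 4 sets ran from -0.89 ± 0.29 to -0.32 ± 0.10. The fifth set, 1420019_at, was at -0.18 ± 0.24. Against control, the 4 dimmer sets ranged from -0.30 to 0.08 with SB203580 and from 0.25 to 0.63 with SP600125. The highest was 1420018_s_at, at 0.63 ± 0.29 with SP600125 (95% interval 0.02 to 1.25, adjusted p = 0.566 in limma). With U0126 the dimmer sets ranged from 0.32 to 0.42. On 1455709_at (0.42 ± 0.19, and 0.18 with median scaling) every U0126 sample was above the controls of its array type. The same held for 1424649_a_at (0.09 ± 0.10). The share of all probe sets that lay so was not computed, and 43% of all sets tested had a negative change with U0126.

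Cd9, the tetraspanin of the egg surface, had signals of 4841.2, 14759.9 and 14996.2 with SB203580, against 3681.2, 11597.7 and 12839.3 in controls. All 3 SB203580 samples were above their controls, by 0.32 ± 0.11 (95% interval 0.09 to 0.55, adjusted p = 0.294 in limma). Of all probe sets tested, 11.6% lay wholly above control with SB203580. Cd9 was at 5233.5, 12277 and 14271 with SP600125 (0.25 ± 0.11) and at 4225.6, 12277.5 and 14320.9 with U0126 (0.15 ± 0.11, and -0.03 with median scaling), overlapping the controls on the 430 2.0 arrays in both.

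Cd82, known as a suppressor of metastasis, was read on its main probe set (1416401_at). Its signals were 353.3, 332.0 and 339.6 with SB203580 and 335.5, 340.1 and 342.8 with SP600125. U0126 samples had 545.8, 520.4 and 364.6 and controls 418.5, 338.9 and 490.5. The changes were -0.26 ± 0.22 with SB203580, -0.27 ± 0.22 with SP600125 and 0.19 ± 0.22 with U0126. Its other probe set, 1449611_at, did not track this one (r = -0.139 over 12 samples, centred within array type) and stood at 0.10 ± 0.45 with SB203580, 0.66 ± 0.45 with SP600125 and 0.94 ± 0.45 with U0126. Its signals were 221.5, 111.3 and 174.6 with U0126, against 155.3, 92 and 31.3 in controls. Each U0126 signal was above the controls of its array type, and for this no share over all probe sets was computed.

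Cd151, a partner of laminin-binding integrins, differed little from control. Its set 1456085_x_at was at 0.07 ± 0.14 with SB203580 (95% interval -0.23 to 0.37) and 0.07 ± 0.14 with SP600125 (95% interval -0.22 to 0.37). SB203580 samples had signals of 2955, 6534.1 and 6195.6, and SP600125 samples 3238.5, 6411.8 and 5809.6, against 2524.1, 6737.5 and 6071.7 in controls. U0126 samples had 1892, 6706 and 5650.1 (-0.17 ± 0.14). The other 4 tested Cd151 sets ranged from -0.05 to 0.10 with SB203580 and from -0.04 to 0.18 with SP600125. A further Cd151 set, 1420921_at, was under the signal filter and was not tested, with 9 to 87 over the 12 samples.

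**Figure D2:**
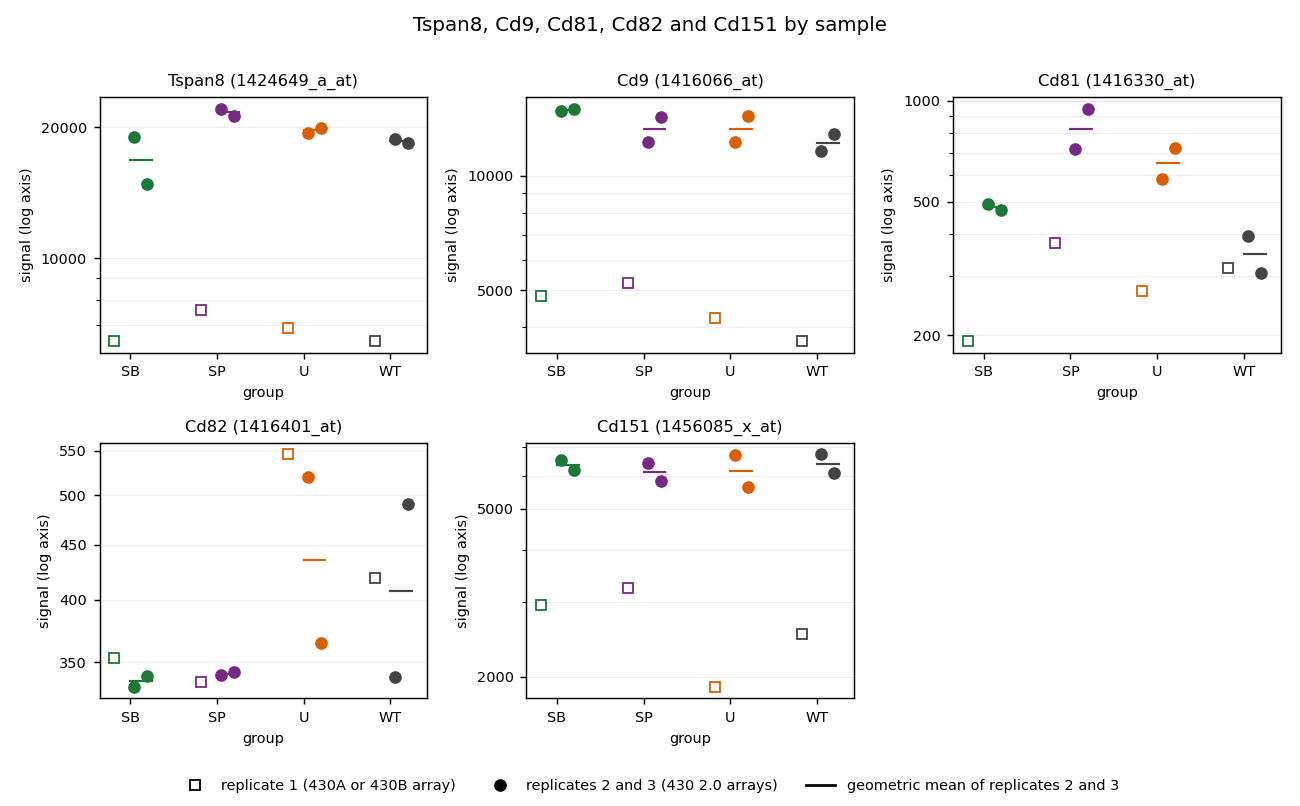
Signals (log axis) of the main probe sets of Tspan8, Cd9, Cd81, Cd82 and Cd151 in SB203580 (SB), SP600125 (SP), U0126 (U) and control (WT) samples; open squares are replicate 1, filled circles replicates 2 and 3, and lines their geometric mean. Cd81 is above control in all 3 SP600125 samples, as for 11% of all probe sets tested. On the 430 2.0 arrays the main Cd82 signals with SB203580 and SP600125 lie between 332.0 and 342.8.

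The other uroplakins had dim signals, and none passed in a tested comparison. The files give no detection call, so whether these transcripts were present is not known. Upk1a, the tetraspanin partner of Upk2, had 101.2, 95.8 and 49.7 with SB203580, 110.0, 69.5 and 108.1 with SP600125, 78.0, 34.6 and 32.0 with U0126, and 164.8, 41.7 and 46.7 in controls. On the 430A array each inhibitor sample was thus below the control, and on the 430 2.0 arrays the SB203580 and SP600125 samples were above both controls. Upk2 had 342.2, 16.0 and 74.7 with SB203580, 375.7, 138.5 and 97.8 with SP600125, 287.0, 24.3 and 193.3 with U0126, and 270.0, 130.3 and 101.2 in controls. Its change with SB203580 was -0.79 ± 0.56, with an interval from -1.97 to 0.39. Upk3a, the partner of Upk1b, had 81.2, 7.7 and 44.7 with SB203580, 69.1, 45.2 and 84.2 with SP600125, 17.1, 68.4 and 24.9 with U0126, and 24.2, 46.4 and 63.7 in controls. Its SB203580 and SP600125 changes, -0.20 ± 0.61 and 0.49 ± 0.61, were smaller than their errors.

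**Figure D3:**
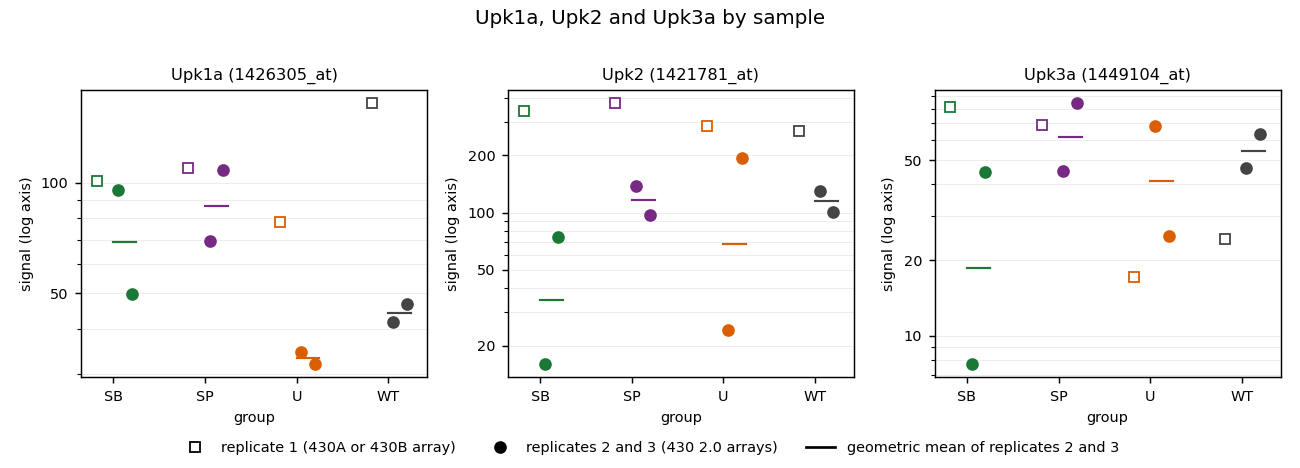
Signals (log axis) of Upk1a, Upk2 and Upk3a in SB203580 (SB), SP600125 (SP), U0126 (U) and control (WT) samples; open squares are replicate 1, filled circles replicates 2 and 3, and lines their geometric mean. The highest Upk3a signal is 84.2. Upk1a lies below the controls of its array type in all 3 U0126 samples, as for 9.14% of all probe sets tested.

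Counted over the members, 23 of the 24 probe sets passed the signal filter and were tested. With SB203580, 2 of 23 passed at an adjusted p under 0.05, both lower and both of Upk1b, where 0.389% of the 27022 probe sets tested passed. Without the adjustment 5 of 23 had a p under 0.05, the 4 Upk1b sets and Cd9, against 9.36% of all. The 4 sets are annotated to 1 gene and are not independent. With SP600125, 0 of 23 passed, against 0.592% of all probe sets, and without the adjustment 9 had a p under 0.05, against 8.52% of all. These belonged to Tspan1 (2), Tspan8 (2), Cd9, Cd81 and Upk1b (3). The controls of both inhibitors are those against which Tspan1 and Upk1b were picked, so these counts are not independent of that choice. Between SB203580 and SP600125, 0 of 23 passed, against 0.788%, and 7 had an unadjusted p under 0.05, against 10.6%. They were 4 sets of Tspan8, and 1 each of Tspan1, Cd81 and Upk1b.

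Every SB203580 sample was below the controls of its array type for 5 of 23 member sets, against 11.9% of all tested, and above them for 1, of Cd9, against 11.6%. The 5 were the Upk1b sets and 1 set of Tspan8. For SP600125 against control, 6 of 23 lay wholly below, against 11.5%, and they were the sets of Tspan1 and Upk1b. Another 2 lay wholly above, Cd81 and 1 set of Tspan8, against 11%. Tspan1 and Upk1b were picked against the same controls, so the counts below control are not independent of that choice. For SB203580 against SP600125, 9 of 23 lay wholly below, against 12.7%, and these belonged to 4 genes, Tspan8, Cd81, Upk1b and Upk2. Most were sets of Tspan8 and Upk1b, and sets of 1 gene are not independent. Another 2 lay wholly above, 1 set each of Tspan1 and Cd151, against 13.5%. The median change over the 23 was -0.14 with SB203580, 0.17 with SP600125 and -0.32 for SB203580 minus SP600125, against 0.01, 0.00 and 0.01 over all probe sets tested.

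**Figure D4:**
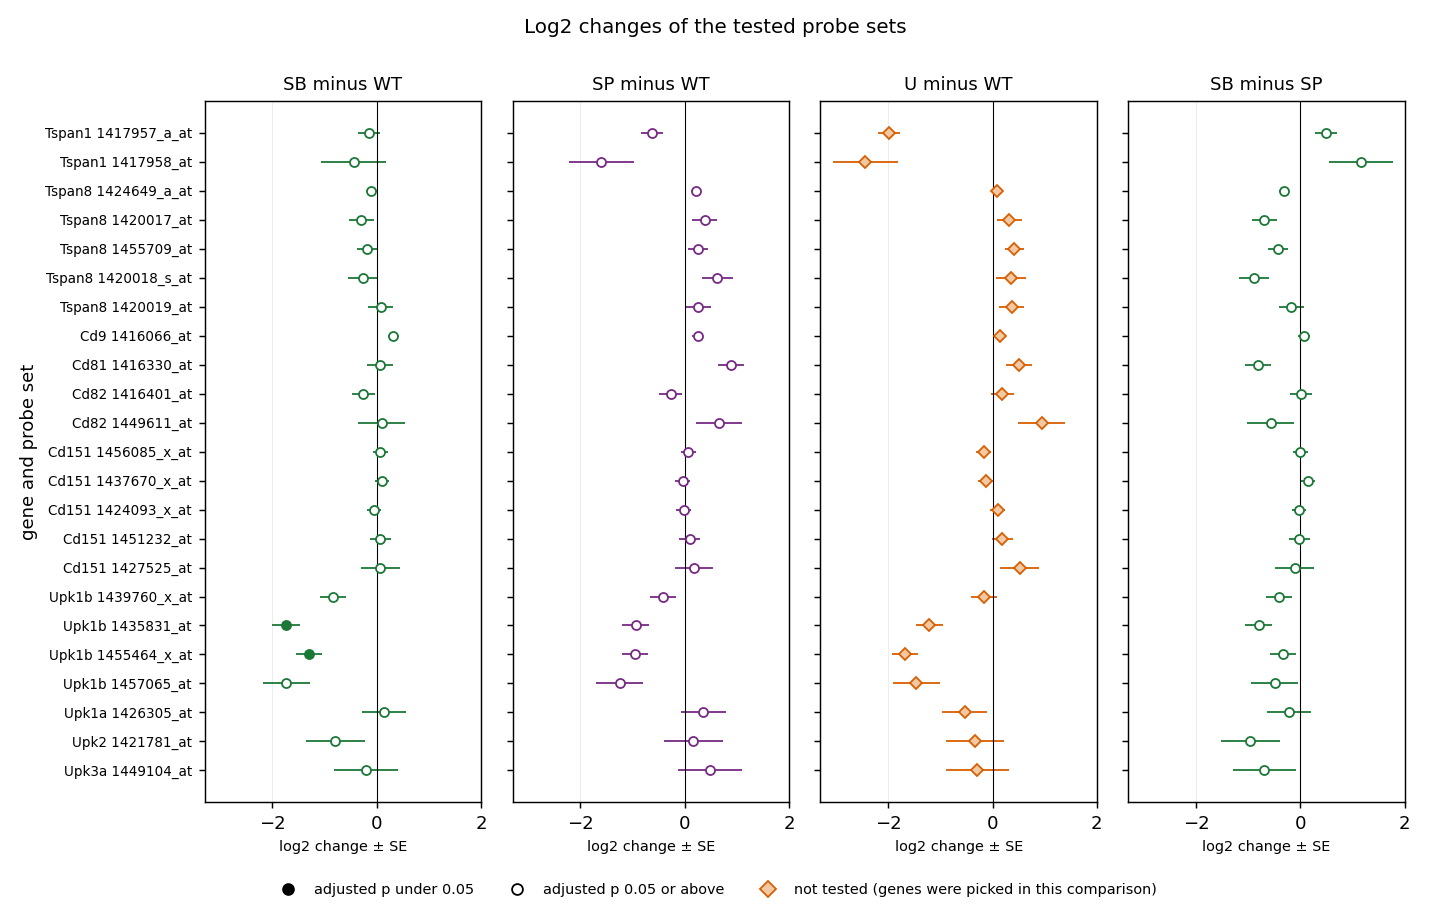
Log2 changes with standard errors (n = 3 per group) of the 23 tested probe sets in 4 comparisons; filled circles passed at an adjusted p under 0.05, open circles did not, and diamonds mark U0126 against control, which was not tested. The 2 filled circles are Upk1b sets with SB203580 (-1.74 and -1.29).

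Of 23 other tetraspanin genes listed, 21 had a probe set and 15 were tested, and none passed with SB203580 (median 0.03), with SP600125 (median 0.06) or between the 2 inhibitors (median 0.00). Tspan31, a widely expressed tetraspanin, stood at 0.50 ± 0.19 with SP600125, and Tspan6 at -0.40 ± 0.32 with SB203580 and -0.48 ± 0.32 with SP600125. Of 14 tetraspanin partner genes 13 were tested and none passed, with medians of -0.01, 0.13 and -0.03 in the same comparisons. Epcam, an epithelial adhesion protein found in tetraspanin domains, was at 0.64 ± 0.16 with SP600125 (adjusted p = 0.113 in limma) and 0.12 ± 0.16 with SB203580, and Ifitm3, a tetraspanin-associated membrane protein, at -1.13 ± 0.28 (adjusted p = 0.103 in limma) and -0.70 ± 0.28. These 4 genes were named after their values were seen.

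Among 15 urothelial and apical epithelial genes, 7 were tested and 1 passed. Elf3, an epithelial Ets factor, was lower in blastocysts treated with SB203580 than with SP600125, with signals of 3116.8, 4439.2 and 4356.9 against 4294.2, 6783.1 and 6536.8. The difference was -0.55 ± 0.10 (adjusted p = 0.0121 in limma), and the call was lost without SB203580 replicate 2 or 3 or SP600125 replicate 2 or 3 (adjusted p = 0.0657, 0.0705, 0.0736 and 0.0633). Eomes, a trophectoderm factor, was also lower in that comparison (-0.92 ± 0.13, adjusted p = 0.0012 in limma, and 0.0976 without the intensity trend), and the part of trophectoderm content in the Elf3 value was not tested. The Elf3 call was also lost with median scaling (0.111), on the 430 2.0 arrays alone (0.0585) and without the intensity trend (0.22). The 7 urothelial and apical genes had medians of 0.05 with SB203580, 0.01 with SP600125 and -0.04 between them. Upk3b and Krt20, markers of bladder surface cells, were under the filter, with signals of 3.0 to 24.6 and 3.7 to 83.5 over the samples.

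The genes most like Tspan1 across the 12 samples, by Pearson's r of log2 signal centred within array type on its main probe set, were Mcm5 (r = 0.935), a DNA replication helicase subunit, Srsf2 (0.925), a splicing factor, and Ssb (0.918), an RNA-binding protein. Srsf2 had signals of 2046.7, 4650 and 4821 with U0126, against 3179, 7091.2 and 7426.3 in controls, the same group standing low as for Tspan1. The genes most like the main Upk1b probe set were Ranbp10 (r = 0.928), Dlat (0.925), which encodes a subunit of pyruvate dehydrogenase, and Prdm1 (0.924), a transcriptional repressor. Dlat had 346.3, 579.2 and 445.9 with SB203580, against 423.6, 806.9 and 932.1 in controls. Among the members themselves, the main probe set of Tspan1 correlated with that of Upk1a at 0.603, of Cd151 at 0.547 and of Upk1b at -0.067. The Upk1b genes and the value of -0.067 rest on 1439760_x_at, the set that differed from the other 3 of Upk1b. All of these are descriptions over 12 samples that share arrays and groups.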

How the data were processed

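RNA of 12 blastocyst samples was read on 16 Affymetrix arrays. The deposited table holds linear intensity, and the authors had scaled each array so that its mean, with 2% trimmed at each end, was 500 (500.0 to 500.2 here). The software, background correction and summary of probes: not given in the sources used here. Per the labels, labelling followed Affymetrix's small-sample protocol for replicate 1 and its two-cycle protocol for the others. The 430A and 430B arrays of a replicate were joined by label number, with the 430A value for probe sets on both.

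Values were taken to log2 after adding 12.6 to the deposited intensity (the 20th percentile on the 430 2.0 arrays), so changes of dim probe sets are understated. Affymetrix controls were left out, and probe sets were tested if their mean on the 430 2.0 arrays reached the 40th percentile. This filter averages all groups, so a gene high in a single group can pass through it. The test was limma 3.58.1 in R 4.3.3 across 27022 probe sets, with the 4 groups, array type as a block and an intensity trend, and with Benjamini-Hochberg adjustment. Residual degrees of freedom were 7, and prior ones 9.7 at the median. Tests are two-sided. No count stands behind a signal, and the number of arrays limits precision. In simulated data for SP600125 against control, 40% of log2 changes of 1 and 86% of log2 changes of 2 were recovered, with 5 false calls.

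Named were all 10 members, the called genes of each list (up to 4 each in SB203580 and SP600125 against control and between them), and the 3 genes most correlated with Tspan1 and with Upk1b. A gene's main probe set is its brightest on the 430 2.0 arrays. Gene symbols were updated through RefSeq. Members and lists were chosen with earlier results of these data known. Replicates 2 and 3 of different groups did not deviate together (r = 0.018 to 0.088), so their numbers were not used as pairs. Alternatives were other constants, no filter, other scalings, a block, 430 2.0 arrays alone, no trend and single samples left out.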

Additional observations from a re-analysis of the deposited data

How the results depend on the processing

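With SB203580, 2 member probe sets passed, against 0 on the 430 2.0 arrays alone, 0 without the intensity trend and 1 to 2 with a sample left out. With SP600125 the count was 0, and 0 to 1 with a sample left out, the 1 being Cd81 without control replicate 1. SB203580 against SP600125 stayed at 0. With the replicate number as a replicate block in place of array type, the counts were 2, 0 and 0, the same as without it. Over all probe sets the counts were 105, 160 and 213, and they fell to 1, 8 and 23 without the trend, to 35, 82 and 116 on the 430 2.0 arrays alone and to 64, 74 and 125 with median scaling. Cause was not tested for these.

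For U0126 against control, Tspan1 on 1417957_a_at (-1.99) was -2.17 with median scaling, -1.67 on the 430 2.0 arrays alone and -2.16 to -1.72 with a sample left out. On 1417958_at (-2.44) it was -1.57 with a constant of 50, -3.12 with a constant of 1, -3 on the 430 2.0 arrays alone and -2.88 to -2.13 with a sample left out. Upk1b on 1457065_at (-1.46) was -1.20 with a constant of 50, -1.68 with median scaling and -1.73 to -1.30 with a sample left out. The set 1439760_x_at ran from -0.40 to 0.16 with a sample left out. Median scaling moved the median of all probe sets to -0.13, against 0.06.

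Changes that did not pass turned sign in these settings. On the 430 2.0 arrays alone, Cd151 was -0.01 with SB203580, -0.07 with SP600125 and 0.06 between them, and Cd82 was -0.02 between them. With a sample left out, the SB203580 changes ran from -0.26 to 0.05 for Tspan1, -0.18 to 0.02 for Tspan8, -0.16 to 0.43 for Cd81, 0.00 to 0.12 for Cd151, -0.14 to 0.50 for Upk1a and -0.87 to 0.47 for Upk3a. Those with SP600125 ran from -0.08 to 0.17 for Cd151 and -0.14 to 0.38 for Upk2. Between the inhibitors they ran from -0.03 to 0.18 for Cd9, -0.05 to 0.03 for Cd82, -0.10 to 0.15 for Cd151, -1.01 to 0.06 for Upk1b 1457065_at and -0.50 to 0.03 for Upk1a. In 9 further member probe sets 22 of 540 recomputed changes turned sign and 0 crossed the threshold. Signals near 12.6 limit Tspan1 1417958_at, Upk1b 1457065_at, Upk1a, Upk2 and Upk3a.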
